A study of Mus musculus with 12 samples.

Results

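The 28 genes described here encode the enzymes that build cholesterol from acetyl-CoA, the proteins that switch the transcription factor SREBP2 on and off, and the 2 sterol carriers Stard4 and Npc1. They were taken by gene name, out of 34797 gene names on the array. Sc4mol is the array's name for Msmo1. All 28 were among the 17596 genes tested, and the brightest probe of each was well above background on all 12 arrays, so no member passed only through a group in which it was high. They have 45 probes, of which 42 were bright enough to be tested. The brightest probe over all arrays stands for its gene. Of the 12 members with several tested probes, the second probes of Srebf2, Stard4, Nsdhl and Mvk are given with their results, and the signs of the rest are counted.

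The cells were RAW264.7, a transformed mouse line that behaves much like macrophages, kept for 24 h in medium with fatty acid-free albumin. The 4 groups of 3 arrays were palmitic acid with FABP4 (0.2 mM and 200 nM), palmitic acid alone (0.2 mM), FABP4 alone (200 nM of the recombinant protein) and control cells given neither. FABP4, also named aP2 or A-FABP, binds fatty acids inside adipocytes and macrophages and is also found outside cells, and palmitic acid is the common saturated fatty acid of plasma. No genotype differed between groups. Nothing in the labels states that a group's 3 arrays were separate cultures, and the p-values then measure the spread between these arrays alone, which may be technical. In such RNA pooled over many cells, fewer cells expressing a gene and less RNA per cell cannot be told apart.

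Cells make cholesterol in the endoplasmic reticulum. Acetyl-CoA is turned into mevalonate and then into isoprenoid units, these are joined into squalene, and squalene is closed to lanosterol and trimmed to cholesterol. SREBP2, the product of Srebf2, is held in the same membrane by Scap. When sterols are plentiful, Insig1 and Insig2 keep the pair there. When sterols are scarce, Scap escorts SREBP2 to the Golgi, where the proteases of Mbtps1 and Mbtps2 release the part that enters the nucleus and activates nearly all genes of the pathway, Insig1 and Srebf2 itself included. Macrophages also take up cholesterol with lipoproteins and dead cells, and Npc1 carries it out of the lysosome.

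Signals are given as relative signals, the scanner's background-subtracted intensity divided by each array's 75th percentile of it, and changes as log2 fold changes. No array had a saturated spot, between 42.8% and 46.7% of its spots were well above background, and the 75th percentile lay between 250.1 and 315 intensity units. Arrays limit precision by their number: with 3 arrays a group, the standard error of a difference between 2 groups was 0.08 for the median gene. The arrays lay on 2 slides that nearly coincide with the treatment. The 3 control arrays and FABP4 array 1 were on slide 1, and slide 2 carried the 6 arrays with palmitic acid and the other 2 FABP4 arrays (2 and 3). Palmitic acid against control therefore runs wholly across the slides, palmitic acid with FABP4 against palmitic acid lies wholly within slide 2, and in the fit that blocks on slide, the FABP4 group, split 1 to 2, supplies the slide difference alone. On slide 2, FABP4 arrays 2 and 3 were on row 1 of the slide and the 3 arrays with palmitic acid and FABP4 on row 2. Within that slide, these 2 groups cannot be told apart from the rows. All 10 macrophage markers were well above background on every array. Their summed relative signal lay at 1669 to 1705 with palmitic acid and FABP4, 1599 to 1648 with palmitic acid, 1517 to 1600 with FABP4 and 1558 to 1615 in control cells. None of 4 adipocyte markers was above background, and 1 of 4 fibroblast, 1 of 3 dendritic cell and 1 of 4 neutrophil markers could be tested, with no called change.

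The stretch just before the transcript start was read for 23 members from RefSeq (GRCm38.p6), 29 promoters in all, for 4 short motifs on both strands within 250 bases. No promoter of Fdps, Fdft1, Sqle, Stard4 or Npc1 was available, so these were not read. Of the 23 members read, Hmgcs1 alone had an exact match to the sterol regulatory element in its shortened form. Near matches were not searched for, so absence of the element from the other members is not shown. The 5 promoters below are its own and those of Srebf2, Idi1, Nsdhl and Insig1, members whose signals the results turn on. All lie on the plus strand and read 5′ to 3′ up to the base before the start. Capitals mark CCAAT or its reverse complement, the binding sequence of NF-Y, the E-box CACGTG of helix-loop-helix factors such as SREBP, and the shortened element TCACNCCAC.
Srebf2, chr15:82147019-82147268: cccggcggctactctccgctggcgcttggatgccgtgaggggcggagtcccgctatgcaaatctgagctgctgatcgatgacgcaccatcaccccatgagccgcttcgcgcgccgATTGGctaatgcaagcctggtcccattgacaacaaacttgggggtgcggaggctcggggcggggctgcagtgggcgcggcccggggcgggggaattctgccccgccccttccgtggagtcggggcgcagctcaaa
Insig1, chr5:28071162-28071411: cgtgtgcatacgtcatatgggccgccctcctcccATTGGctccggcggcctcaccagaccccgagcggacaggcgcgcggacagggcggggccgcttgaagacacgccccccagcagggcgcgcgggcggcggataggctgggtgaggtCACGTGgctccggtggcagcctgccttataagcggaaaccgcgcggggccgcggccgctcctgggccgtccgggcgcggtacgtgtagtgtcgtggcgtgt
Hmgcs1, chr13:119690101-119690350: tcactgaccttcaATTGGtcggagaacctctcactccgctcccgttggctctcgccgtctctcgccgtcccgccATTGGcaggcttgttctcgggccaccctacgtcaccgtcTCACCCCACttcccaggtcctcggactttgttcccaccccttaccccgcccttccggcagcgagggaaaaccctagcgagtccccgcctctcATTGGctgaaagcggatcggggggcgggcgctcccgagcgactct
Idi1, chr13:8885356-8885605: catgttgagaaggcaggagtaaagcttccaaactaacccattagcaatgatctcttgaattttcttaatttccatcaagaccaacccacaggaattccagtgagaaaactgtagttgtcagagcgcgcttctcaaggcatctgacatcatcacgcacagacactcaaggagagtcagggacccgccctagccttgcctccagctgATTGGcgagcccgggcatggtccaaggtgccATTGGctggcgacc
Nsdhl, chrX:72918271-72918520: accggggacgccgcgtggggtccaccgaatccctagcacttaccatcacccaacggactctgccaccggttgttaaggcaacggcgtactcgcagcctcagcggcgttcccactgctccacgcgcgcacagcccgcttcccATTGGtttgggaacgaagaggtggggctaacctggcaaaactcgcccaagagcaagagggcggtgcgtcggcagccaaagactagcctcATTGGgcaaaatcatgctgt

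The shortened sterol regulatory element TCACNCCAC was in 1 of the 29 member promoters, that of Hmgcs1, which is 3.45% against 1.05% of all 32851 promoters in the table. CACGTG was in 5, those of Dhcr7, Hsd17b7, Insig1, Sc5d and Scap, which is 17.2% against 6.02%. CCAAT was in 19, or 65.5% against 33.8%, and the GC box GGGCGG, not capitalised in the sequences, was in 22, or 75.9% against 32.7%. These are matches of letters and say nothing of binding in these cells.

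Palmitic acid without FABP4 changed 4 members of the cholesterol pathway by the test used, and 24 did not pass. Srebf2, which encodes the transcription factor that drives the pathway, rose, as did Nsdhl, an enzyme that removes methyl groups from the sterol ring. Both rose by the probe that stands for the gene, while their second probes differed by 0.03 and 0.08 on the log2 scale and were not called. Idi1, the isomerase that makes the second isoprenoid unit, fell. The fourth, Stard4, a sterol carrier of the cytosol, rose by the probe that stands for it and fell by its other probe. The 4 passed limma's test at a Benjamini-Hochberg adjusted p under 0.05, as 8.61% of all genes tested did. The 3 members that rose stand beside 4.88% of all genes and the 1 that fell beside 3.73%, so the counts are no result about the 28 genes as a whole. The 95% interval lay within 0.5 of 0 on the log2 scale for 26 of the 28. Without scaling between arrays, which moves the median of all genes by 0.17, 5 members rose and 0 fell. Among all 17596 genes, 2945 rose and 110 fell in that setting. The median log2 fold change of the 28 was 0.01, with 18 above 0, and that of all genes tested was 5e-04, with 50.1% above 0. All 3 arrays with palmitic acid were above all 3 control arrays for 7 members, where 17.5% of all genes were, and below them for 3 members, where 16.4% were. With the slide as a block, 0 of 28 members and 0.784% of all genes were called, the members' median was 0.18 with 24 above 0, and that of all genes was 0.04 with 57.9% above 0.

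**Figure D1:**
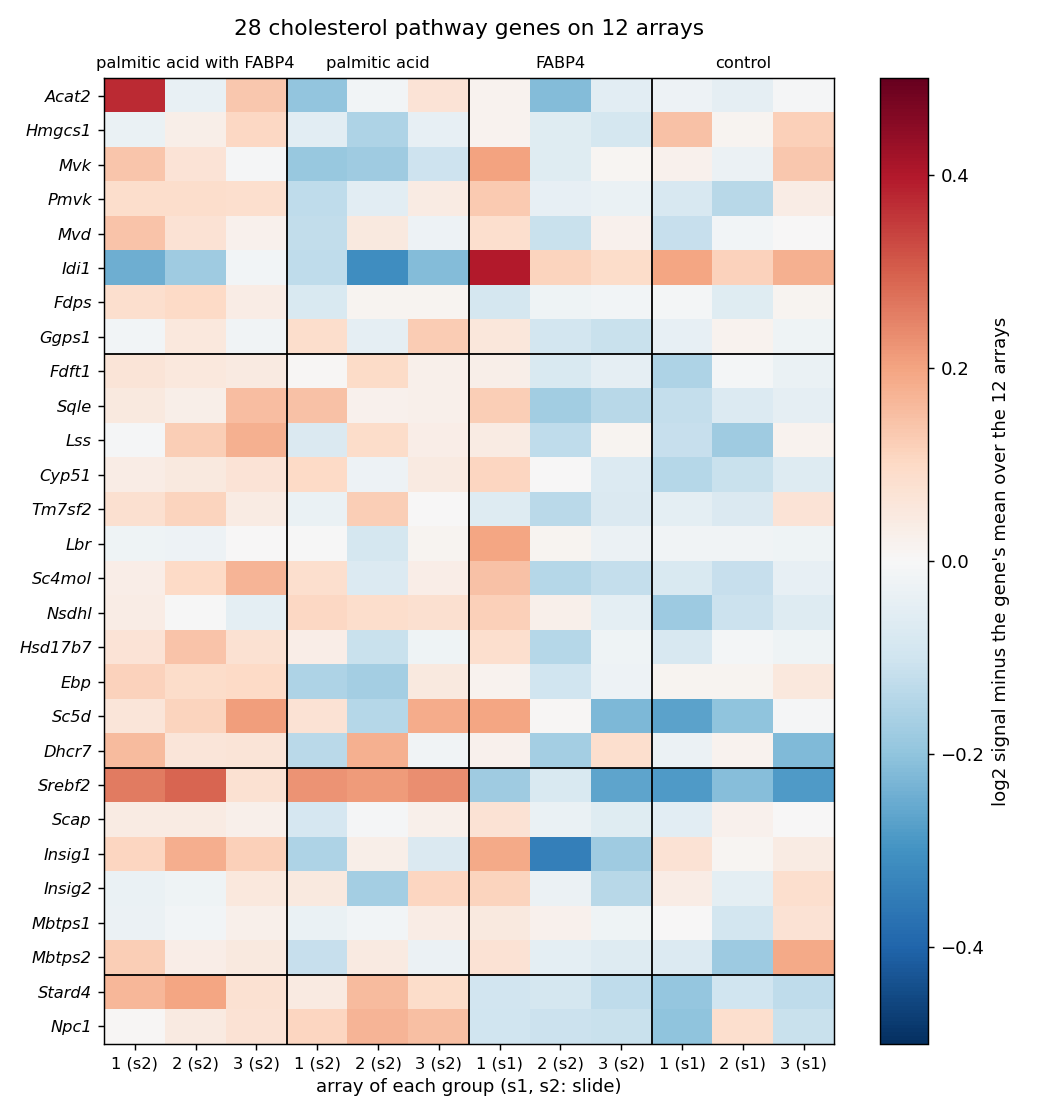
The relative signal of each of the 28 genes (rows) on each of the 12 arrays (columns, with the slide in brackets), as log2 minus the mean of the gene over the arrays. Horizontal lines part the mevalonate and isoprenoid steps, the squalene and sterol steps, SREBP2 control and sterol transport. Srebf2 is above its mean on all 6 arrays with palmitic acid, and FABP4 array 1 is the highest of its group for 24 of the 28 genes.

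In cells given FABP4, palmitic acid again came with higher Srebf2 and higher Stard4, each by the probe that stands for it. Both rose by the same test, and no member fell. The 2 called members stand beside 3.81% of all genes tested by limma, or 2.86% that rose and 0.943% that fell. Quantile normalization and the 75th percentile of detected probes each gave 2 members that rose and 1 that fell, Idi1. Of all genes, 393 rose and 304 fell by quantile normalization, and 390 rose and 431 fell by the detected probes. Without scaling between arrays, 0 members were called, and 67 of all genes rose and 92 fell. The median of the 28 was 0.10, with 24 above 0, and that of all genes was 0.05, with 63.3% above 0. The groups were apart with the higher signal under palmitic acid for 7 members, where 19.3% of all genes were, and with the lower signal for 1, Idi1, where 6.97% were. With the slide as a block 3 members were called, beside 3.35% of all genes, and with the slide 2 arrays alone 0, beside 1.48%. Both of these fits compare groups that lay on different rows of slide 2, and the part of the row was not tested. At an unadjusted p under 0.05, 8 members passed without FABP4 and 7 with it, among 4667 and 3674 of all genes.

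**Figure D2:**
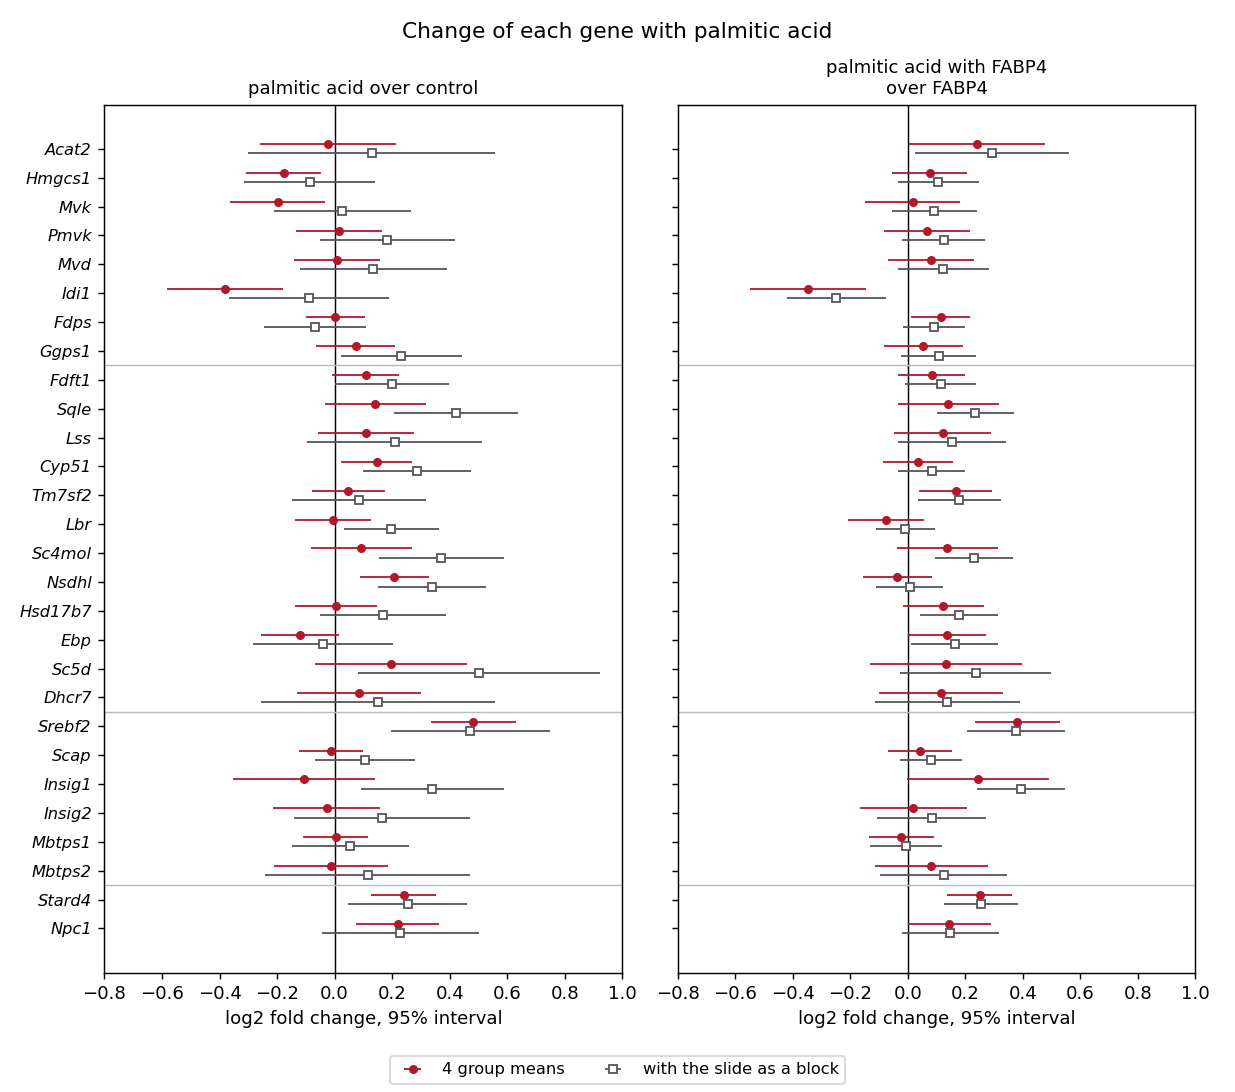
Log2 fold changes of the 28 genes with their 95% intervals, for palmitic acid over control and for palmitic acid with FABP4 over FABP4. Filled circles are the fit with 4 group means, and open squares are the fit with the slide as a block. In the left panel the block raises the median of every section of genes, the sections being parted by lines.

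Among the mevalonate and isoprenoid steps, Idi1 had the widest differences in the fit with 4 group means, though not under the slide block, where Ggps1 stood at 0.23 over control and Acat2 at 0.29 over FABP4. Its relative signal was 18.8, 16.6 and 17.7 with palmitic acid, against 23.6, 22.2 and 23.2 in control cells. It was 17.3, 18.2 and 20.3 with palmitic acid and FABP4, against 27.0, 22.2 and 21.9 with FABP4. All 6 arrays with palmitic acid were below all 6 without it. The log2 fold change was -0.38 ± 0.09 (SE) without FABP4 (limma adjusted p = 0.0304) and -0.35 ± 0.09 with it (adjusted p = 0.0664, which missed the threshold). The first call was lost without any 1 of the 3 control arrays or without palmitic acid array 2 or 3, and held in 7 of 12 such fits. Blocking on slide gave -0.09 (adjusted p = 0.792) and -0.25 (adjusted p = 0.12), and FABP4 array 1, at 27.0, was the highest Idi1 signal of all arrays.

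Hmgcs1, the synthase that makes HMG-CoA, had 26.2, 24.5 and 26.4 with palmitic acid, against 30.1, 27.5 and 29.6 in control cells. The groups did not overlap, and the log2 difference was -0.18 ± 0.06 (SE, limma adjusted p = 0.0873). With palmitic acid and FABP4 it had 26.6, 27.7 and 29.3, against 27.5, 26.1 and 25.6 with FABP4, which overlap. Mvk, mevalonate kinase, had 13.5, 13.7 and 14.4 with palmitic acid, against 15.7, 15.1 and 16.9 in control cells, again without overlap, at -0.20 ± 0.07 (adjusted p = 0.125). With both agents it had 17.0, 16.2 and 15.4, against 17.7, 14.8 and 15.5 with FABP4, so the 3 palmitic acid arrays were the lowest of the 12. Blocking on slide gave Mvk a difference from control of 0.03 (adjusted p = 0.933), and its second probe stood at -0.05 without the block.

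Acat2, the cytosolic thiolase of the first step, had 1.40, 1.05 and 1.19 with both agents, against 1.09, 0.928 and 1.04 with FABP4. These groups overlapped, and the log2 difference of 0.24 ± 0.11 (SE) did not pass (limma adjusted p = 0.229). Fdps, which makes farnesyl diphosphate, had 185, 187 and 179 with both agents, against 165, 172 and 173 with FABP4, at 0.12 ± 0.05 (adjusted p = 0.199), and 166, 177 and 176 with palmitic acid, against 174, 168 and 177 in control cells. Both agents thus gave the highest Fdps group, and the other 3 groups overlapped. Pmvk and Mvd, the next kinase and the decarboxylase of the pathway, and Ggps1, which makes geranylgeranyl diphosphate, differed by 0.01 to 0.07 between palmitic acid and control and by 0.05 to 0.08 between both agents and FABP4, with adjusted p from 0.485 to 0.96.

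Of the 12 members that form squalene and turn it into cholesterol, 10 had a log2 difference above 0 with palmitic acid in each comparison, and the medians were 0.10 without FABP4 and 0.12 with it. Nsdhl was the only one of the 12 to be called, in the comparison without FABP4. It had 4.10, 4.06 and 4.03 with palmitic acid, against 3.37, 3.55 and 3.65 in control cells, with no overlap, and the log2 fold change was 0.21 ± 0.05 (SE, limma adjusted p = 0.0415). This call is close to the threshold: it held in 2 of 12 fits that left out an array (FABP4 array 1 or 3), with adjusted p up to 0.136 in the others, and was lost with a slide block (0.34, adjusted p = 0.109). In cells given FABP4 the gene had 3.92, 3.82 and 3.69 with palmitic acid, against 4.15, 3.89 and 3.69 without, at -0.04 ± 0.05 (adjusted p = 0.741). The difference between these 2 effects was -0.24 ± 0.08 (adjusted p = 0.647 for the interaction). Its second probe gave 0.08 for palmitic acid over control.

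Sqle, the squalene epoxidase that commits squalene to sterols, had 38.5, 35.2 and 35.4 with palmitic acid, against 32.0, 33.1 and 33.7 in control cells. With FABP4 present it had 36.0, 35.5 and 38.7 with palmitic acid, against 37.8, 30.8 and 31.6 without. The groups were apart in the first pair and overlapped in the second through FABP4 array 1, and both differences were 0.14 ± 0.08 (SE, limma adjusted p = 0.28 and 0.33). The slide block gave 0.42 (adjusted p = 0.0903) and 0.23 (adjusted p = 0.0686). Sc4mol, the methyl sterol oxidase that acts before Nsdhl, overlapped in both pairs, with 74.9, 67.5 and 72.4 with palmitic acid, against 67.2, 65.3 and 68.7 in control cells, and 72.3, 75.7 and 79.5 with both agents, against 78.3, 64.1 and 65.1 with FABP4. Its differences were 0.09 and 0.14 (adjusted p = 0.49 and 0.344), and 0.37 and 0.23 with the slide block (adjusted p = 0.119 and 0.0759).

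Fdft1, squalene synthase, had 10.7, 11.4 and 10.8 with palmitic acid, against 9.57, 10.6 and 10.4 in control cells, and 11.2, 11.0 and 11.0 with both agents, against 10.9, 10.1 and 10.3 with FABP4. Both pairs were apart by a small step, at 0.11 and 0.08, without passing (limma adjusted p = 0.218 and 0.383). Cyp51, the lanosterol demethylase, had 2.04, 1.86 and 1.96 with palmitic acid, against 1.72, 1.76 and 1.82 in control cells, at 0.15 ± 0.06 (SE, adjusted p = 0.127). With FABP4 present it differed by 0.04. Tm7sf2, a sterol reductase, had 3.01, 3.07 and 2.92 with both agents, against 2.72, 2.59 and 2.71 with FABP4, at 0.17 ± 0.06 (adjusted p = 0.145).

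Ebp, which shifts a double bond in the ring, had 27.6, 27.1 and 27.3 with both agents, against 25.8, 23.8 and 25.0 with FABP4, and 22.9, 22.6 and 26.3 with palmitic acid, against 25.7, 25.7 and 26.4 in control cells. The 3 arrays with both agents were above all other arrays. Its palmitic acid differences were 0.14 and -0.12 (limma adjusted p = 0.234 and 0.244). The remaining members of these steps, Lss, the cyclase that forms lanosterol, Lbr, a reductase that also anchors chromatin at the nuclear envelope, Hsd17b7, Sc5d and Dhcr7, which reduce or desaturate the ring, differed by -0.08 to 0.20 in either comparison. None passed, with adjusted p of 0.295 or more.

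**Figure D3:**
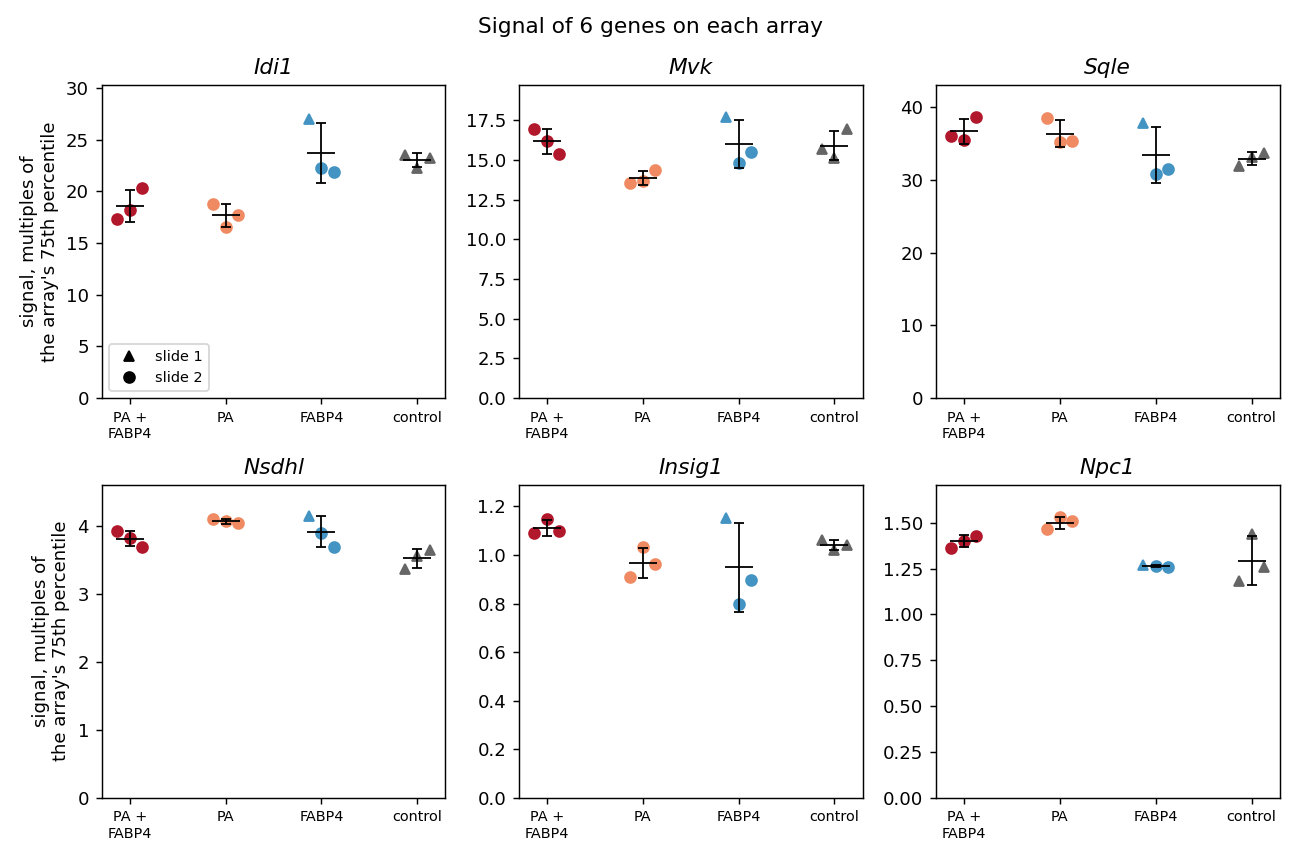
Relative signal (vertical axis, starting at 0) of Idi1, Mvk, Sqle, Nsdhl, Insig1 and Npc1 on each array. Bars are the mean and SD of 3 arrays, triangles are slide 1 and circles slide 2. Idi1 is lower on every array with palmitic acid, and FABP4 array 1, the only FABP4 array on slide 1, is above the other FABP4 arrays for all 6 genes.

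Of the genes that control SREBP2, Srebf2 itself had the widest log2 fold change of the 28 members in the fit with 4 group means. It had 7.12, 7.05 and 7.15 with palmitic acid, against 5.00, 5.26 and 5.01 in control cells. It had 7.29, 7.45 and 6.42 with palmitic acid and FABP4, against 5.38, 5.78 and 5.08 with FABP4. The lowest of the 6 arrays with palmitic acid was above the highest of the 6 without, on slide 2 as well, where 6.42 stood above 5.78. The log2 fold changes were 0.48 ± 0.07 (SE, limma adjusted p = 0.00356, 95% interval 0.33 to 0.63) and 0.38 ± 0.07 (adjusted p = 0.0129, 0.23 to 0.53). The call without FABP4 held in 12 of 12 fits that left out an array, and that with FABP4 in 10 of 12, ending without array 1 or array 2 of cells given both agents. Blocked by slide, the sizes were 0.47 (adjusted p = 0.117) and 0.38 (adjusted p = 0.0323).

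The other 5 genes of SREBP2 control were not called in either comparison. Insig1, a target of SREBP2 that holds Scap back, had 0.909, 1.03 and 0.962 with palmitic acid, against 1.06, 1.02 and 1.04 in control cells, at -0.11 ± 0.11 (SE, limma adjusted p = 0.579). With FABP4 present it had 1.09, 1.15 and 1.10 with palmitic acid, against 1.15, 0.799 and 0.895 without. FABP4 array 1, on slide 1, was as high as the arrays with both agents, and the 2 FABP4 arrays on slide 2 were lower than every other array. The difference was 0.25 ± 0.11 (adjusted p = 0.242), and 0.39 ± 0.07 under the slide block (adjusted p = 0.0184), while the slide 2 arrays alone gave the same size at adjusted p = 0.0608. Against control, the block turned the sign to 0.34 (adjusted p = 0.185). Scap, Insig2, Mbtps1 and Mbtps2 differed by -0.03 to 0.08, with adjusted p of 0.624 or more.

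Of the 2 sterol carriers, Stard4 rose in both comparisons by the probe that stands for it, and Npc1 missed the threshold in both. That Stard4 probe was the brighter of 2 only through the treated arrays: its ratio to the other was 0.964, 1.00 and 0.966 in control cells, so the change itself entered the choice of probe. By that probe Stard4 had 2.15, 2.33 and 2.22 with palmitic acid, against 1.82, 1.94 and 1.90 in control cells, and 2.34, 2.39 and 2.19 with both agents, against 1.95, 1.96 and 1.90 with FABP4. No array with palmitic acid overlapped one without, and the log2 fold changes were 0.24 ± 0.05 (SE, limma adjusted p = 0.0197) and 0.25 ± 0.05 (adjusted p = 0.0266). Each call held in 8 of 12 fits that left out an array, the first ending without control array 1 or 3 or palmitic acid array 2 or 3, and the second without FABP4 array 2 or 3 or array 1 or 2 of cells given both agents. Under the slide block the sizes were 0.25 (adjusted p = 0.237) and 0.25 (adjusted p = 0.0474). Npc1, which exports cholesterol from the lysosome, had 1.47, 1.53 and 1.51 with palmitic acid, against 1.18, 1.44 and 1.26 in control cells, and 1.36, 1.40 and 1.43 with both agents, against 1.27, 1.26 and 1.26 with FABP4. Both pairs were apart, at 0.22 ± 0.07 (adjusted p = 0.0652) and 0.15 ± 0.07 (adjusted p = 0.24), and without control array 2 the first passed at adjusted p = 0.0147.

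The called rises of Srebf2 and Stard4 depended on which probe was read. The Srebf2 probe that stands for the gene lies at chr15:82030068-82030127 on the plus strand (mm9, the build named in the file headers), and a second probe lies downstream at chr15:82034765-82034824. The downstream probe averaged 3.78 ± 0.14 with both agents, 3.78 ± 0.20 with palmitic acid, 3.45 ± 0.15 with FABP4 and 3.70 ± 0.18 in control cells (SD, n = 3 each), and its log2 differences were 0.13 with FABP4 present (limma over every probe, adjusted p = 0.272) and 0.03 without (adjusted p = 0.784). Its 3 arrays with both agents, at 3.94, 3.67 and 3.72, lay above the 3 with FABP4, at 3.36, 3.63 and 3.37, while palmitic acid and control overlapped. The ratio of the upstream to the downstream probe was 1.87 ± 0.15 with both agents, 1.88 ± 0.09 with palmitic acid, 1.57 ± 0.05 with FABP4 and 1.38 ± 0.11 in control cells. The probes of Stard4, on the minus strand of chromosome 18, went in opposite directions. They also differ in mapping, as the upstream probe is mapped over a much longer genomic span than the downstream probe. The upstream probe rose as given above, while the downstream probe averaged 1.45 ± 0.03 with palmitic acid, against 1.93 ± 0.04 in control cells, and fell by 0.42 on the log2 scale (limma over every probe, adjusted p = 0.00435).

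With FABP4 present the downstream Stard4 probe averaged 1.63 ± 0.07 with palmitic acid, against 1.76 ± 0.11 without, at -0.11 (adjusted p = 0.322). The ratio of its upstream to its downstream probe was 1.42 ± 0.06 with both agents, 1.54 ± 0.04 with palmitic acid, 1.11 ± 0.08 with FABP4 and 0.98 ± 0.02 in control cells. For both genes the 6 ratios with palmitic acid were above the 6 without. A ratio of 2 probes reads their unequal change between groups and not the amount of either transcript, these 2 pairs were singled out after their values were seen, and the ratios were not tested. Whether the probes lie in an exon, an intron or a UTR was not analysed here. Of the 12 members with several tested probes, 8 had 1 sign over their probes for palmitic acid over control and 3 had 1 sign for both agents over FABP4.

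**Figure D4:**
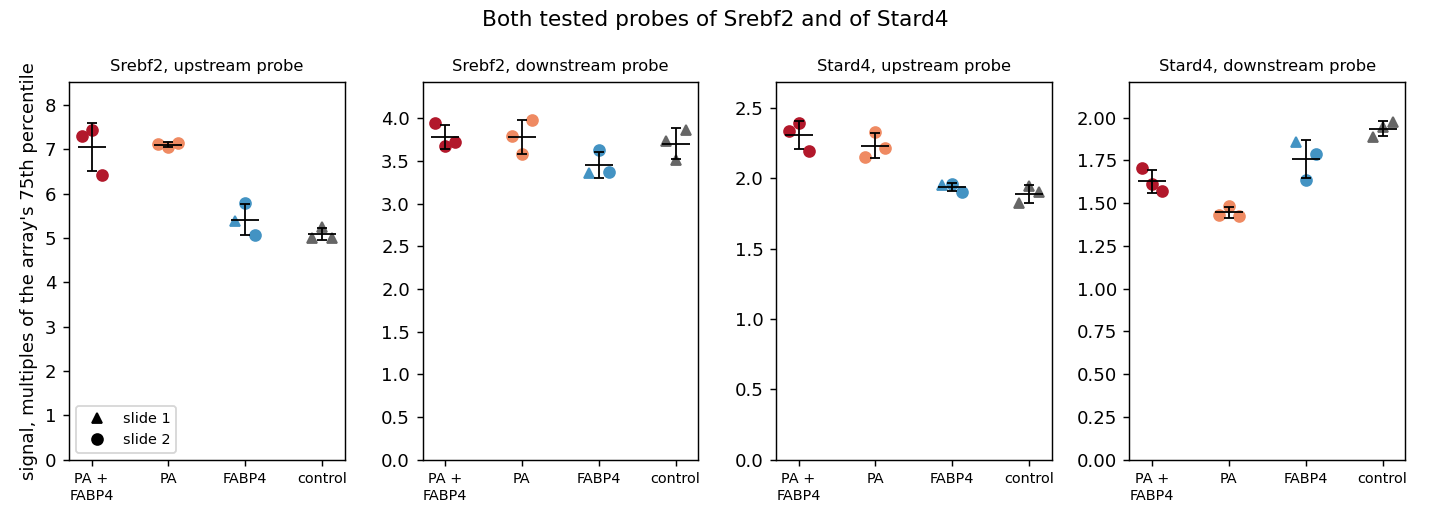
Relative signal (vertical axes, starting at 0) of the upstream and the downstream probe of Srebf2 and of Stard4 on each array. Bars are the mean and SD of 3 arrays, triangles are slide 1 and circles slide 2. The upstream probes are higher with palmitic acid, the downstream Srebf2 probe overlaps between palmitic acid and control, and the downstream Stard4 probe is lower with palmitic acid than in control cells.

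FABP4 by itself gave no called member. In cells without palmitic acid, 0 of 28 members and 0.017% of all genes passed limma's test, with 2 members and 1273 genes at an unadjusted p under 0.05. The differences ran from -0.15 for Insig1 to 0.15 for Sc5d, the lowest adjusted p was 0.602, and the 95% interval of each of the 28 lay within 0.5 of 0 on the log2 scale. Nsdhl was the 1 member whose FABP4 arrays, at 4.15, 3.89 and 3.69, did not overlap the control arrays, at 3.37, 3.55 and 3.65, where 4.01% of all genes were higher without overlap. No member was lower without overlap, where 6.41% of all genes were. FABP4 array 1 was the highest of its group for 24 of the 28 members, by a median of 0.13 over the mean of the other 2, and it shared slide 1 with the control arrays. On that slide its difference from the mean of the control arrays was above 0 for 23 of 28 members, with a median of 0.10, which is 1 array and has no test of its own.

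With palmitic acid present, where both groups share slide 2, adding FABP4 gave 0 called members and 0 called genes by limma, and 2 members and 1034 genes at an unadjusted p under 0.05. The median over members was 0.08 with 23 of 28 above 0, and that of all genes was 0.03 with 64.9% above 0. The 3 arrays with both agents were all higher than the 3 with palmitic acid for 8 members, Hmgcs1, Mvk, Pmvk, Fdps, Hsd17b7, Ebp, Scap and Insig1, where 11.4% of all genes were, and all lower for Nsdhl and Npc1, where 3.1% were. Mvk had the widest of these differences, at 0.22 ± 0.07 (SE), with 0.0067 by its second probe, followed by Acat2 at 0.21 ± 0.11, Insig1 at 0.20 ± 0.11 and Ebp at 0.19 ± 0.06, all at an adjusted p of 0.806 or more. Every 95% interval lay within 0.5 of 0. The palmitic acid arrays were on both rows of slide 2 and the arrays with both agents on 1 row, and the part of the row in these values was not tested.

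No member and no other gene passed limma's test of the interaction, the effect of palmitic acid with FABP4 minus its effect without, with 4 members and 1218 genes at an unadjusted p under 0.05. In the fit with 4 group means the widest interactions were 0.35 ± 0.16 (SE) for Insig1, 0.27 ± 0.15 for Acat2, 0.26 ± 0.09 for Ebp, 0.25 ± 0.08 for Hmgcs1 and -0.24 ± 0.08 for Nsdhl, with adjusted p from 0.647 to 0.722. Under the slide block Insig1 was at 0.055 (adjusted p = 0.922) and Nsdhl at -0.33 (adjusted p = 0.18). For 26 of 28 members the interval of the interaction stayed within 0.5 of 0. For Srebf2 it was -0.10 with a 95% interval of -0.31 to 0.11, and for Stard4 0.01 with -0.15 to 0.17.

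Neighbouring genes of the pathway were read from 4 further lists. Of 11 regulators of SREBP and of sterol-driven protein breakdown, Rnf145, a sterol-responsive ubiquitin ligase that acts on Scap, fell, with 1.11, 1.18 and 1.30 with palmitic acid, against 1.44, 1.57 and 1.35 in control cells, and 1.24, 1.29 and 1.17 with both agents, against 1.47, 1.62 and 1.56 with FABP4. The groups were apart in both pairs, at -0.28 ± 0.08 (SE, limma adjusted p = 0.0466) and -0.33 ± 0.08 (adjusted p = 0.0414). The first was lost under the slide block (adjusted p = 0.213) and the second held there (adjusted p = 0.049) but not on the slide 2 arrays alone (adjusted p = 0.0762). The other 10 were not called, and 3.73% of all genes fell in the first comparison and 0.943% in the second. Of 12 genes that use isoprenoids for ubiquinone, dolichol and protein prenylation, Coq2, the enzyme that joins the ubiquinone ring to its tail, fell without FABP4, at -0.23 ± 0.06 (adjusted p = 0.0476), with 9.97, 9.65 and 10.8 with palmitic acid, against 11.5, 11.7 and 12.4 in control cells. Blocked by slide, the Coq2 value was -0.07 (adjusted p = 0.798).

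Of 13 genes of sterol storage, transport and oxysterol synthesis, 10 could be tested, and 4 rose with palmitic acid in cells given FABP4, where 2.86% of all genes rose. Soat1, which esterifies cholesterol for storage, had 1.90, 1.84 and 1.74 with both agents, against 1.39, 1.37 and 1.50 with FABP4, at 0.37 ± 0.07 (SE, limma adjusted p = 0.016). Control cells had 1.69, 1.83 and 1.56, above the FABP4 arrays and overlapping those with both agents. Lipa, the lysosomal acid lipase that frees cholesterol from its esters, had 43.8, 43.0 and 42.5 with both agents, against 37.6, 36.5 and 36.9 with FABP4, at 0.22 ± 0.04 (adjusted p = 0.0261). Tmem97, which binds Npc1, rose by 0.22 (adjusted p = 0.0471), and Gramd1b, which moves cholesterol from the plasma membrane to the endoplasmic reticulum, by 0.24 (adjusted p = 0.0256). Their second probes differed by 0.20 and 0.10 and did not pass (limma over every probe, adjusted p = 0.0942 and 0.238). In all 4 the arrays with both agents did not overlap those with FABP4, all 4 passed under the slide block (adjusted p from 0.0342 to 0.0457), and none passed on the slide 2 arrays alone (0.0539 to 0.0926).

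Without FABP4, where 4.88% of all genes rose, 1 of these 10 did, Gramd1b, at 0.26 ± 0.05 (SE, limma adjusted p = 0.0119), while Soat1 differed by 0.02 from control. Gramd1b's second probe gave 0.10. Of 9 genes that supply acetyl-CoA or electrons, 8 could be tested, and Acss2, the acetyl-CoA synthetase that is a target of SREBP, fell without FABP4, with 1.89, 1.83 and 2.06 with palmitic acid, against 2.38, 2.53 and 2.51 in control cells (-0.36 ± 0.07, adjusted p = 0.011). Its second probe was at 0.22 in the opposite direction (limma over every probe, adjusted p = 0.145), and the first probe was at -0.17 under the slide block (adjusted p = 0.469). Of the 10 macrophage markers, Cd68 rose by 0.35 (limma adjusted p = 0.00906) and Csf1r by 0.26 (adjusted p = 0.0208) with both agents over FABP4, and the median of the 10 was -0.06. With palmitic acid over control Cd68 rose by 0.26 (adjusted p = 0.0196), Itgam was lower at -0.34 (adjusted p = 0.0104), and the median was 0.01. The part of these markers in the results above was not tested.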

How the data were processed

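Total RNA of RAW264.7 cells was labelled with Cy3 and hybridised to Agilent 1-colour arrays, per the labels' protocols. The authors deposited scanner intensity values from Agilent Feature Extraction 10.7.3.1, per the file headers, background-subtracted and not scaled between arrays. Their deposited value table holds the same intensity within 0.005. Further steps are not given in the sources used here. Control and outlier spots were left out, and values were log2 of the intensity minus each array's 75th percentile. Tested probes (23911 of 55681) stood well above background on each array of some group. The brightest stood for its gene. Limma 3.58.1 in R 4.3.3 (lmFit and eBayes, two-sided, 4 group means, 12 arrays) gave 5 contrasts over 17596 genes, with Benjamini-Hochberg adjustment over all of them. On data simulated for palmitic acid over control, the procedure recovered 13.4% of log2 changes of 0.25, 70.1% of 0.5 and 83.3% of 1. Those data held 66 or 67 changed genes of each size among 17586, whereas palmitic acid over control called 1515 of 17596. The share recovered on the arrays themselves was not tested, and a member that was not called may still have changed. All 28 members are named whatever their values, and of the further lists the called genes. Members and lists were chosen with earlier results of these data known. Of the alternatives, reading the next brightest probe was chosen after seeing the data. Figures were drawn with matplotlib 3.10.9.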

Additional observations from a re-analysis of the deposited data

How the results depend on the processing

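The count of members called for palmitic acid over control was 4, beside 1515 of all 17596 genes tested. Brackets give the number of all genes called in each setting. The count of members was 1 with no filter on dim probes (513 of 34797 tested), 2 with the mean of a gene's probes (1460) and 0 with the slide as a fixed block (138). It was 1 with the slide as a random block (191), 2 with only the 2 groups fitted (1430) and 2 with the next brightest probe (1284). It was 5 with quantile normalization (1823, Npc1 added), with the 75th percentile of detected probes (1798, Cyp51 added) and with trended and robust moderation (1926, Hmgcs1 added). It ran from 1 to 4 when single arrays were left out (655 to 2716). It was 1 without control array 1 (655), control array 3 (677), palmitic acid array 2 (728) or palmitic acid array 3 (905). For both agents over FABP4 the count was 2 (670). It was 0 without scaling between arrays (159), 0 with no filter (185 of 34797 tested) and 1 with the mean of probes (588). It was 0 on slide 2 alone (260), 0 with only the 2 groups (94) and 0 with the next brightest probe (455). It ran from 0 to 3 when single arrays were left out (247 to 601). It was 0 without array 1 (247) or 2 (261) of cells given both agents and 1 without FABP4 array 2 (298) or 3 (485). Without FABP4 array 1 it was 3 (588), Insig1 added. The counts for FABP4 and for the interaction were 0 in every alternative run, with at most 103 of all genes called in any of them. Stard4 turned to -0.090 (limma adjusted p = 0.269) for palmitic acid over control with the mean of its probes and to -0.42 (adjusted p = 0.00447) with the next brightest probe, which gave -0.11 (adjusted p = 0.326) for both agents over FABP4. The next brightest probe left Srebf2 at 0.03 (adjusted p = 0.784) and 0.13 (adjusted p = 0.274). The cause of these changes was not tested. Same-numbered arrays of different groups did not deviate together in the comparisons made (correlations from -0.08 to 0.07). With 3 arrays a group this cannot settle whether equal numbers mark a shared culture or day. With a replicate block 3 members were called for palmitic acid over control (1339) and 2 for both agents over FABP4 (408). The probes that stand for the 28 members were above background on all 12 arrays, so dim signal sets no bound here.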
